A study of Mus musculus with 16 samples.

Results

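The genes described here encode proteins of DNA repair, homologous recombination and the DNA damage checkpoint. They were taken from a list of 44 symbols covering recombination, the Fanconi pathway, mismatch and base excision repair and checkpoint signalling. Of these, 43 were measured among 18193 genes, each through its brightest probe set, and Xrcc2 was not analysed here. AND T cells, which are CD4+ T cells with a transgenic receptor for a moth cytochrome c peptide, were studied after transfer into other mice. The question was how the duration of antigen and the activation of dendritic cells shape the T cells. Lymph node cells with the CD90.1 marker went into each B10.BR recipient, and CD4+CD90.1+ cells were sorted 60 h later.

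Recipients with persistent or transient antigen carried both transgenes (Ii-rTA+, TIM+), whose product is the peptide under a doxycycline-controlled promoter. Recipients with no antigen lacked the first of these (Ii-rTA-, TIM+), so genotype and antigen cannot be told apart. The titles also give no, short and long doxycycline for the 3 regimes, which cannot be told apart from antigen either. Age was given as 6 to 8 weeks. Recipients in each regime received PBS or FGK45.5, an antibody that stimulates CD40 and so activates dendritic cells, here called anti-CD40. The groups held 3 arrays each, or 2 where anti-CD40 was given with no or transient antigen. The labels do not say whether replicates were separate animals, so the p-values measure only the spread between these samples, which may be technical.

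Homologous recombination mends broken chromosomes with an intact copy as template. Nucleases and helicases prepare the broken ends, the BRCA proteins promote the search for that copy, and further enzymes resolve the joined molecules. The Fanconi pathway removes links between DNA strands, and the Atr and Chek1 checkpoint senses stalled replication forks. T cells divide rapidly after antigen, and many of these genes are transcribed mainly in dividing cells under E2F factors.

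Because many of the genes moved together, promoter sequence was searched for 3 motifs, each on both strands. The tables of RefSeq, build GRCm38.p6, held 37 of the genes, and 32 of these had a single window of 250 bases before a transcript start site. The annotated gene span can begin further upstream, and 25 of the 32 windows reached into it, 4 of them whole. An E2F motif (TTTGGCGC, TTTGCCGC, TTTCGCGC or TTTCCCGC) was found in 5 of the 32 windows, or 15.6%, against 1.87% of all 32544 windows of that length. It was in 4 of 22 windows (18.2%) of genes called higher under persistent than no antigen with PBS, in the blocked fit described below. Among the other 10 windows it was in 1 (10%), that of Fancg. The CCAAT box was found in 46.9% of the 32 and 33.8% of all windows. The CHR element (TTTGAA) was found in 9.38% and 15.8%. No matches of different motifs overlapped in these genes, and base composition was not matched. The E2F matches, in capitals, are shown within 30 bases of the gene's strand, for Chek2 (chr5:110839820-110839849, plus strand), Topbp1 (chr9:103305187-103305216, plus strand), Brca2 (chr5:150522442-150522471, plus strand), Bard1 (chr1:71103163-71103192, minus strand) and Fancg (chr4:43010335-43010364, minus strand).
Chek2: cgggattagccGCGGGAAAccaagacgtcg
Topbp1: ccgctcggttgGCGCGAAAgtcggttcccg
Brca2: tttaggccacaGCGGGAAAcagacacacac
Bard1: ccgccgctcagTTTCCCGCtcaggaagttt
Fancg: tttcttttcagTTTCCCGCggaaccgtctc

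The window of Clspn, which had the smallest adjusted p of the 43 for persistent against no antigen in the fit without a block, had no E2F match and 2 CCAAT boxes, in capitals on the reverse strand (chr4:126556730-126556979, plus strand).
Clspn: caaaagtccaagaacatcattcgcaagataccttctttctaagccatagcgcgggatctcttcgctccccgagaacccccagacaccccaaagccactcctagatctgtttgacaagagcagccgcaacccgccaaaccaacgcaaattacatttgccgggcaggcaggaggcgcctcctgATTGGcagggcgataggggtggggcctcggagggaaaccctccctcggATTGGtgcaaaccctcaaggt
Of the 5 E2F stretches, 4 (all but that of Bard1) lay inside the annotated span of their gene, as did the last 23 bases of the Clspn window with its second CCAAT box. These matches describe the letters of the windows and say nothing of which factors bind there.

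Values below are log2(intensity + 1), on which a difference of 1 is about a 2-fold change. Differences are given ± the standard error from limma, adjusted over all 18193 genes, and a gene was called at an adjusted p under 0.05. The median probe set lay at 4.35, and near or below it signal is not set apart from background, so differences from such a level are not exact. Replicate 2 arrays stood apart, with mean intensities of 83.5 to 101.4 against 106.3 to 120.6. Transcripts of Eif2s3y, which lies on the Y chromosome, were at 8.86 to 9.93 in replicate 1 and at 2.61 to 3.09 elsewhere. Xist, a transcript of female cells, went the other way, at 5.10 to 7.16 in replicate 1 and at 9.92 to 11.31 elsewhere. The sex make-up of the cells thus differed between replicate 1 and the others. A second fit therefore took the replicate number as a block, and its results stand beside those of the first. In replicate 2 the arrays without antigen came from another run of array numbers than those with antigen.

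Persistent antigen with PBS was first set against no antigen with PBS. Most of the genes were higher under persistent antigen, with a median difference of 0.90 against −0.03 for all genes. In limma 14 rose and 1 fell, where 3.57% of all genes were called (2.2% higher and 1.36% lower). With the replicate block 31 rose and 2 fell, where 16.7% of all genes were called (9.93% higher and 6.79% lower). The arrays of the groups did not overlap for 26 of the 43, as for 18% of all genes. Within replicates 1, 2 and 3 the median difference was 1.12, 0.62 and 0.85, with 39, 35 and 38 of the genes above 0. The count of 15 called genes was 4 without the persistent PBS array of replicate 1, and 9, 7 and 8 without the no-antigen PBS arrays of replicates 1, 2 and 3. The blocked count of 33 stayed between 27 and 31 when any array of the compared groups was left out. In bulk RNA a smaller share of cells making a transcript and less of it per cell cannot be told apart.

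**Figure D1:**
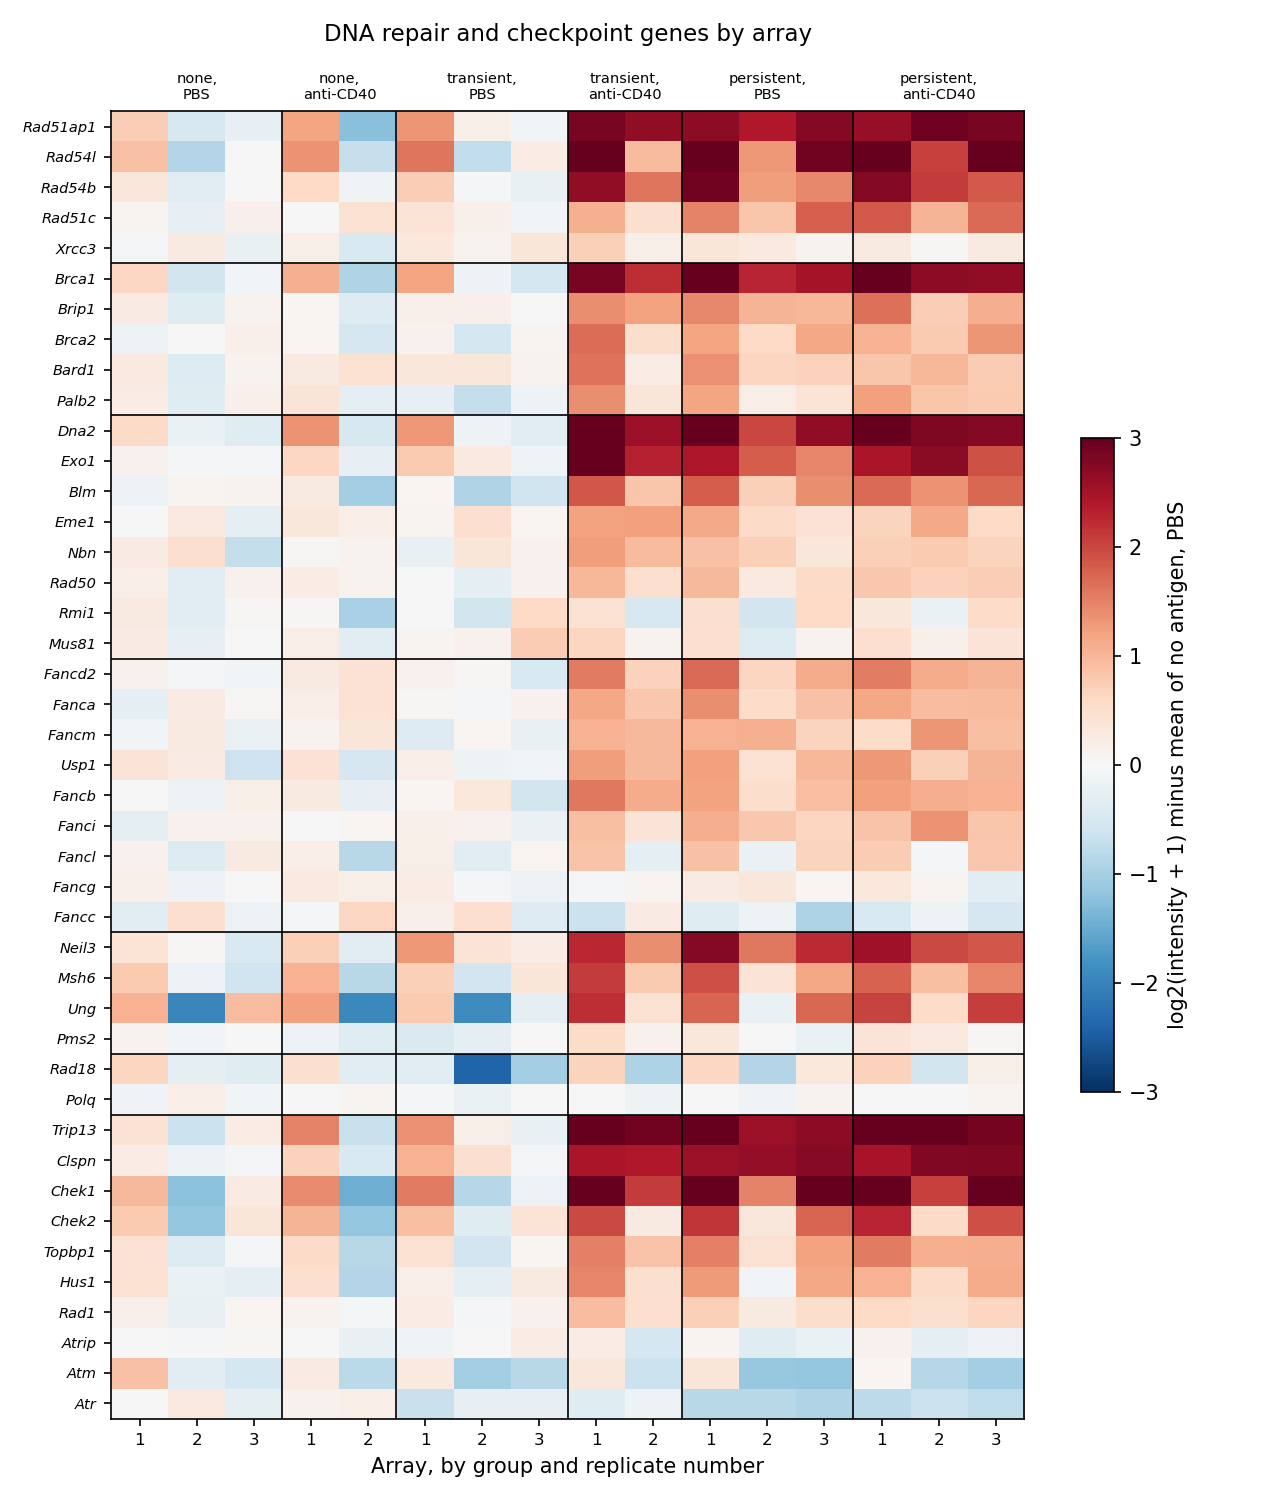
Log2(intensity + 1) of the 43 genes (vertical axis, grouped by role) in each of the 16 arrays (horizontal axis, by group and replicate number), as the difference from the mean of the no-antigen PBS arrays; colours saturate at 3 and −3. Persistent antigen with either treatment and transient antigen with anti-CD40 are mostly red, while the other groups are pale.

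Among the strand exchange factors, 4 of 5 measured genes rose with the replicate block and 3 without it. Rad51ap1, an accessory factor of strand pairing, was at 6.94, 5.72 and 5.96 in the no-antigen arrays and at 8.90, 8.61 and 8.96 under persistent antigen. The groups did not overlap, and the difference was 2.61 ± 0.52 (adjusted p = 0.010, limma). Rad54l, a motor protein that remodels DNA during recombination, was at 6.50, 4.75 and 5.63 without antigen and at 9.11, 6.93 and 8.52 with it. Its replicate 2 arrays were the lowest of each group. It passed only with the block (2.56 ± 0.20, adjusted p = 5.05e-08, against 0.11 without it). Rad54b, its relative, was at 3.77, 3.08 and 3.42 and at 6.32, 4.67 and 4.86. These no-antigen values lie below the median probe set. The difference was 1.86 ± 0.43 (adjusted p = 0.026). Rad51c, which acts in recombination, differed by 1.37 ± 0.31 (adjusted p = 0.022). Xrcc3, whose protein binds that of Rad51c, had the smallest difference of this set, 0.25, with a blocked 95% interval of −0.11 to 0.61, and its arrays overlapped. The call of Rad51ap1 was lost without the no-antigen PBS array of replicate 2 or the persistent PBS array of replicate 1 (adjusted p up to 0.053). That of Rad51c was lost without any of these arrays but persistent PBS replicate 2. That of Rad54b was lost without no-antigen PBS replicate 2 or 3 or persistent PBS replicate 1. Both were also lost with the compared groups alone, and that of Rad54b with log2(intensity + 16). Over all alternatives the adjusted p in limma reached 0.12 for each. With the block all 4 genes kept their call in all 12 alternatives.

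All 5 genes of the BRCA complex and its mediators rose with the block, and 2 without it. Brca1, which promotes the resection of broken ends, was at 7.31, 6.14 and 6.60 without antigen and at 9.68, 8.97 and 9.17 under persistent antigen. The groups were far apart, at 2.59 ± 0.51 (adjusted p = 0.0100). Of its other probe sets 2 differed by 2.18 each, while a dim one differed by −0.13 and was not called. Brip1, a helicase that binds Brca1, was at 4.04, 3.43 and 3.89 and at 5.22, 4.81 and 4.77. It rose by 1.15 ± 0.23 (adjusted p = 0.0100) from a level below the median probe set. Brca2, a mediator of recombination on single-stranded DNA, was at 5.73, 5.86 and 6.03 and at 7.05, 6.46 and 7.02. Its groups did not overlap, and it passed with the block alone (0.97 ± 0.19, adjusted p = 0.0010, against 0.12). Bard1, the partner of Brca1, did so too (0.90 ± 0.23, adjusted p = 0.0090, against 0.14), but not without no-antigen PBS replicate 2 or persistent PBS replicate 1 (up to 0.066). Its no-antigen arrays, at 3.22 to 3.91, lay below the median probe set, and those under persistent antigen, at 4.28 to 4.99, began below it. Palb2, which joins Brca1 to Brca2, had the smallest difference, 0.60 ± 0.18 with the block (adjusted p = 0.025, against 0.51). Its call was lost with replicates 1 and 3 only and without no-antigen or persistent PBS arrays of replicate 1 or 2 (adjusted p up to 0.17). The unblocked calls of Brca1 and Brip1 were lost without the no-antigen PBS array of replicate 2 or the persistent PBS array of replicate 1 (adjusted p up to 0.065).

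Of 8 genes for end resection, helicases and junction processing, 6 rose with the block and 2 without it. Dna2, a nuclease and helicase that resects broken ends, was at 5.61, 4.82 and 4.67 without antigen and at 8.16, 7.04 and 7.69 under persistent antigen. The groups did not overlap, at 2.60 ± 0.51 (adjusted p = 0.010). Exo1, the other main resection nuclease, was at 4.24, 4.05 and 4.06 and at 6.54, 5.93 and 5.59. It went from below the median probe set to well above it in all 3 replicates, by 1.90 ± 0.32 (adjusted p = 0.0040). Blm, the helicase mutated in Bloom syndrome, was at 6.01, 6.27 and 6.30 and at 8.00, 6.91 and 7.59. It passed with the block (1.31 ± 0.23, adjusted p = 3.6e-04, against 0.093). The end-binding genes Nbn (0.65 ± 0.21) and Rad50 (0.61 ± 0.16) and the nuclease subunit gene Eme1 (0.72 ± 0.18) passed with the block alone, at adjusted p of 0.042 or less. All 3 lost that call without persistent PBS replicate 1 (adjusted p up to 0.077 for Eme1). Nbn lost it also without any other array of these groups but no-antigen PBS replicate 2 (up to 0.33). Rad50 lost it also with the mean of its probe sets, with an adjusted p of up to 0.096 over its alternatives. Mus81, the catalytic partner of Eme1, differed by 0.06 (blocked interval −0.31 to 0.44) and Rmi1, a partner of Blm, by 0.18 (−0.19 to 0.55). Their arrays overlapped between the groups. The unblocked call of Dna2 was lost without no-antigen PBS replicate 3 or persistent PBS replicate 1 (adjusted p up to 0.065), and that of Exo1 was kept in all 15 alternatives.

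Of 9 genes in the Fanconi pathway, 6 rose with the block and 4 without it. Fancd2, which is ubiquitinated when strands are linked, was at 4.76, 4.58 and 4.56 without antigen and at 6.35, 5.28 and 5.75 under persistent antigen. No array of one group reached the other, and the difference was 1.16 ± 0.28 (adjusted p = 0.033). Fanca, of the core complex that ubiquitinates it, was at 4.89, 5.38 and 5.18 and at 6.54, 5.69 and 6.03, a difference of 0.94 ± 0.22 (adjusted p = 0.028). Fancm, a translocase that recruits the core complex, was at 4.95, 5.29 and 4.83 and at 6.07, 6.09 and 5.68. It rose by 0.93 ± 0.22 (adjusted p = 0.031), also with no overlap. Fanci, the partner of Fancd2, differed by 0.85 ± 0.22 (adjusted p = 0.050). Fancb (0.88 ± 0.20) and Usp1 (0.90 ± 0.20), the latter an enzyme that removes ubiquitin from Fancd2, passed with the block. Fancg, of the core complex, had the smallest difference, 0.22 (blocked interval −0.11 to 0.56). Fancl, the ubiquitin ligase, was at 0.45 and Fancc at −0.48, neither called. Other Fancd2 probe sets differed by 1.42, 0.05 and −0.13, and a second, dim Fanca probe set by −0.08. Each of the 4 unblocked calls was lost in 4 or more of the fits without 1 array. Fancd2 and Fanci were lost without any no-antigen PBS array, and Fanca and Fancm without no-antigen PBS replicate 1 or 3. All 4 were lost without persistent PBS replicate 1. Fancd2 and Fanca were also lost without persistent PBS replicate 3, Fancm without replicate 2, and Fanci without either. With the compared groups alone all 4 were lost. With the mean of probe sets Fanca, Fanci and Fancm were lost, and with log2(intensity + 16) Fanci was. Over all alternatives the adjusted p in limma reached 0.23 for Fanci and 0.26 for Fancm. With the block the 6 genes that rose kept their call in all 12 alternatives.

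Among mismatch and base excision genes 3 of 4 rose with the block. Neil3, a glycosylase that removes oxidised bases and opens links between strands, was at 6.38, 6.00 and 5.51 without antigen and at 8.71, 7.54 and 8.19 under persistent antigen. It was the only one of the 4 called without the block, at 2.18 ± 0.41 (adjusted p = 0.0074), a call kept in all 15 alternatives. Msh6, a mismatch sensor, was at 7.24, 6.28 and 5.85 and at 8.38, 6.87 and 7.61. The arrays overlapped between groups but rose within each replicate, so that only the blocked fit called it (1.16 ± 0.23, adjusted p = 9.4e-04, against 0.41). Ung, which removes uracil, was at 9.17, 6.17 and 9.05 and at 9.88, 7.94 and 9.85. Its replicate 2 arrays were far below the others in both groups. With the block it differed by 1.09 ± 0.28 (adjusted p = 0.0086, against 0.78), and this call was lost without the no-antigen PBS array of replicate 2 (adjusted p = 0.071). Pms2, a mismatch repair endonuclease, differed by 0.05, with a blocked interval of −0.32 to 0.41.

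The polymerase gene Polq, which joins ends through short homologies, lay below the median probe set in every group, with 4.17 as its highest group mean. Its difference was −0.01. Rad18, a ubiquitin ligase that starts translesion synthesis, was at 7.97, 7.05 and 6.97 without antigen and at 7.96, 6.45 and 7.64 under persistent antigen. These groups overlapped, with a difference of 0.02 (blocked interval −0.46 to 0.50). This holds for the probe set used, which other Rad18 probe sets did not follow in some comparisons given below.

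The checkpoint genes held the largest rises and the falls. Of 10 genes, 7 rose and 2 fell with the block, and 2 rose and 1 fell without it. Clspn encodes claspin, the adaptor through which Atr activates Chek1. It was at 5.83, 5.45 and 5.56 without antigen and at 8.20, 8.26 and 8.35 under persistent antigen. The 3 arrays of each group lay close together and far from the other group, at 2.66 ± 0.31 (adjusted p = 5.1e-04). Trip13, an ATPase that remodels checkpoint and recombination proteins, was at 6.95, 5.87 and 6.74 and at 9.64, 9.10 and 9.20. Its difference of 2.79 ± 0.51 (adjusted p = 0.0066) was the largest of the 43 in this comparison. Both calls were kept in all 15 alternatives. Chek1, the kinase downstream of Atr, was at 7.16, 4.96 and 6.43 and at 9.45, 7.67 and 9.16. It was lowest in replicate 2 of both groups and rose by about as much in each replicate, so the blocked fit called it (2.57 ± 0.29, adjusted p = 2.3e-06) and the other did not (0.12). Chek2, the kinase downstream of Atm, also passed with the block alone (1.41 ± 0.17, adjusted p = 7.5e-06, against 0.45).

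The clamp genes Rad1 and Hus1 and the Atr activator gene Topbp1 passed with the block, at 0.50 ± 0.14, 0.78 ± 0.22 and 1.06 ± 0.17 (adjusted p = 0.015, 0.016 and 1.8e-04). Rad1 lost its call with replicates 1 and 3 only and without no-antigen PBS replicate 2 or persistent PBS replicate 1 (up to 0.086). Hus1 lost its call without no-antigen PBS replicate 3 or persistent PBS replicate 1 or 3 (up to 0.14). Atr, the kinase that senses single-stranded DNA, went the other way. It was at 6.91, 7.22 and 6.65 without antigen and at 6.10, 6.10 and 6.02 under persistent antigen. The groups did not overlap, and the difference was −0.85 ± 0.20 (adjusted p = 0.029, and 7.9e-04 with the block). The blocked call was kept in all 12 alternatives. The unblocked one was lost without no-antigen PBS replicate 1 or 2 or any persistent PBS array. It was also lost with the mean of its probe sets, with cyclic loess, with replicates 1 and 3 only and with the compared groups alone. Over all alternatives its adjusted p reached 0.16. Atm, the kinase that senses broken ends, was at 9.04, 7.84 and 7.65 and at 8.55, 7.03 and 7.01, with differences of −0.49, −0.80 and −0.64 within replicates 1, 2 and 3. It fell with the block (−0.65 ± 0.16, adjusted p = 0.0065, against 0.75). With the mean of its probe sets that call was lost (adjusted p = 0.057). Atrip, the partner of Atr, had the smallest difference, −0.16 (blocked interval −0.49 to 0.17).

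**Figure D2:**
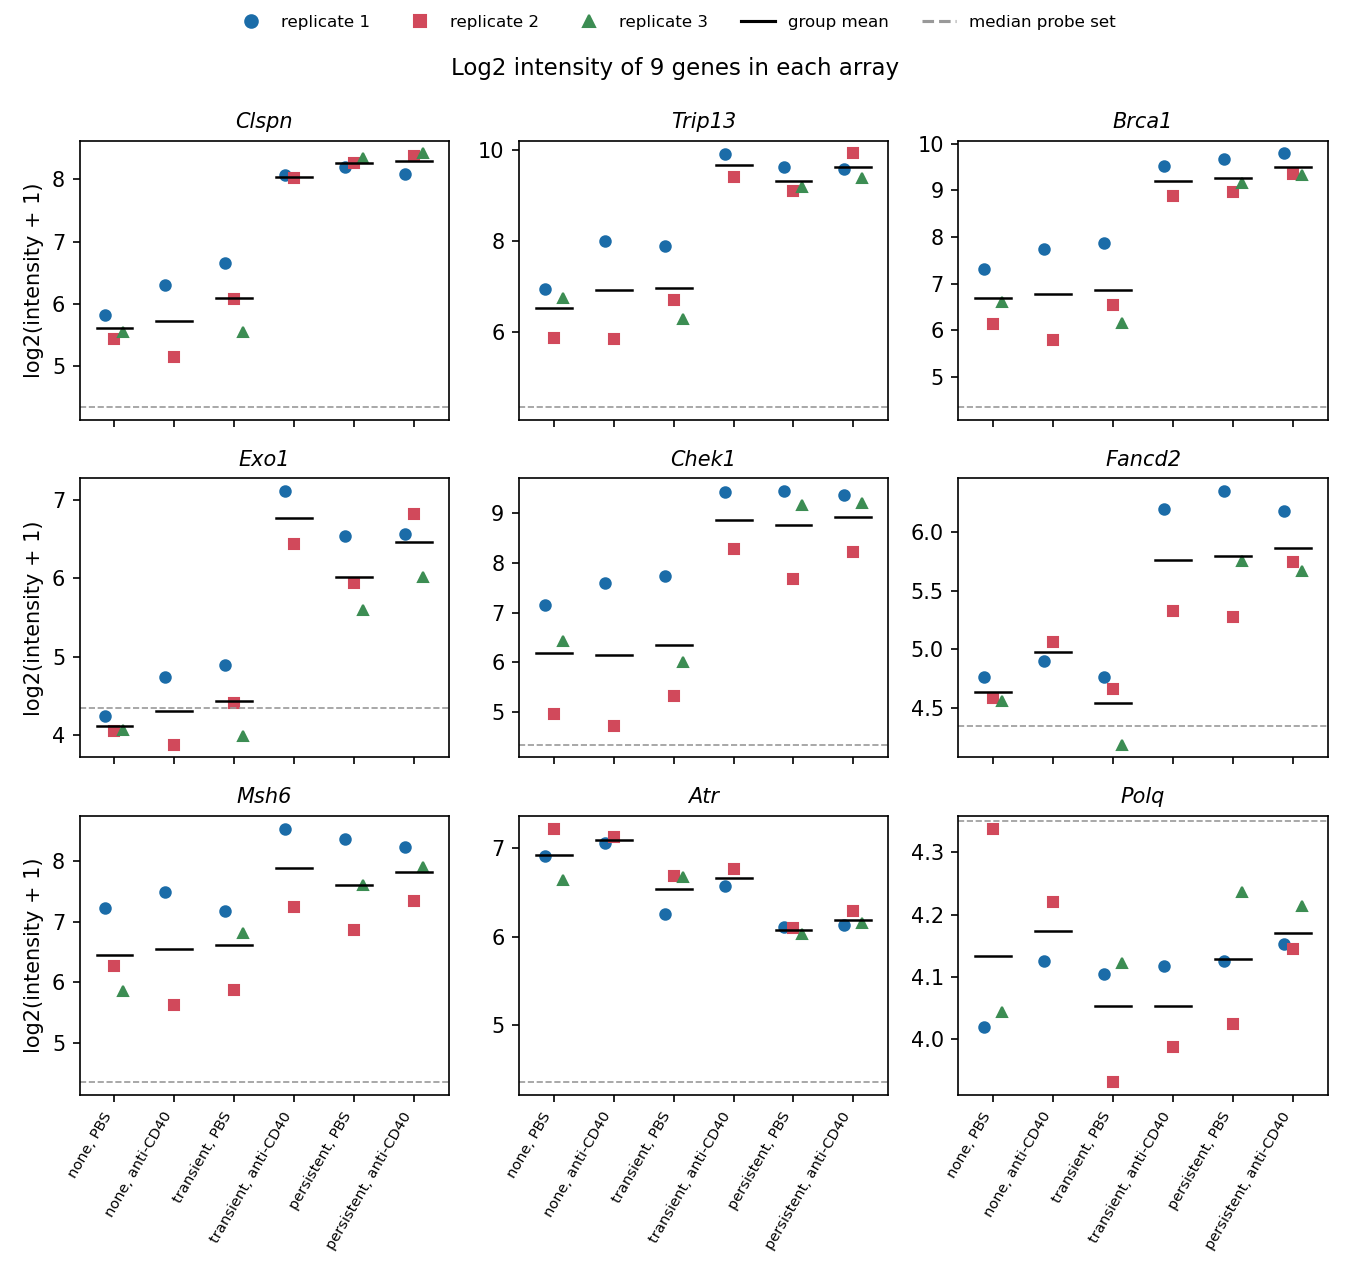
Log2(intensity + 1) of 9 genes in each array (vertical axis, its own range in each panel) by group (horizontal axis); symbols mark the replicate number, bars the group mean and the dashed line the median probe set. In Clspn, Trip13, Brca1, Exo1 and Chek1 the means of the persistent-antigen groups and of transient antigen with anti-CD40 lie above the rest, Atr is lowest under persistent antigen, and Polq stays below the median probe set.

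Transient antigen with PBS was next set against no antigen with PBS, to see whether a passing exposure left these genes raised at 60 h. The median difference was 0.07, against 0.03 for all genes. In limma 0 of the 43 were called, where 0.126% of all genes were (0.0934% higher and 0.033% lower), and 1 had an unadjusted p under 0.05. With the block 1 was called, where 2.89% of all genes were (2.02% higher and 0.868% lower), and 4 had an unadjusted p under 0.05 (Rad18, Neil3, Atm and Atr). The arrays overlapped for all 43 genes, although they did not for 10.1% of all genes. Clspn was at 6.66, 6.08 and 5.55 after transient antigen, within reach of its no-antigen arrays, a difference of 0.49 (blocked 95% interval −0.02 to 0.99). Brca1 differed by 0.17 (−0.34 to 0.68), Chek1 by 0.18 (−0.42 to 0.77) and Exo1 by 0.31 (−0.10 to 0.72). These intervals end below the differences seen under persistent antigen.

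The blocked call was a fall in Rad18. It was at 7.0, 4.92 and 6.30 after transient antigen with PBS, lowest in replicate 2, and differed by −1.26 ± 0.23 (adjusted p = 0.0035, and 1 without the block). Without the transient PBS array of replicate 2 no member was called, and Rad18 had an adjusted p of up to 0.18 over the alternatives. Without the no-antigen PBS array of replicate 2 the count was 2. The other Rad18 probe sets did not follow the one used. They differed by 0.09, 0.18 and −0.44 in this comparison, none of them called.

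Persistent against transient antigen, both with PBS, compares recipients of the same transgenes. The genes were again mostly higher under persistent antigen, with a median of 0.96 against −0.05 for all genes. In limma 7 rose and 0 fell, where 0.929% of all genes were called (0.605% higher and 0.324% lower). With the block 28 rose and 1 fell, where 11.4% were called (5.99% higher and 5.44% lower). The arrays did not overlap for 23 of the 43, as for 17.5% of all genes. Both comparisons with persistent antigen share its arrays. Clspn rose by 2.17 ± 0.31 (adjusted p = 0.0051), Fancm by 1.10 ± 0.22 (adjusted p = 0.030) and Exo1 by 1.59 ± 0.32 (adjusted p = 0.032). Exo1 had been at 4.90, 4.41 and 3.98 after transient antigen, near the median probe set. The others called were Brca1 (2.42), Trip13 (2.35), Blm (1.79) and Brip1 (1.04), at adjusted p of 0.042 to 0.047. The call of Fancm was lost with the mean of its probe sets, and that of Brip1 with no trend and with log2(intensity + 16). Only 1 of the 7 was called without transient PBS replicate 2 or 3 or persistent PBS replicate 1 or 3. The blocked count was 25 to 29 when any array of the compared groups was left out.

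Fancc, of the Fanconi core complex, was the gene that fell with the block, by −0.57 ± 0.18 (adjusted p = 0.043, against 0.57). It was at 6.12, 6.48 and 5.58 after transient and at 5.61, 5.82 and 5.04 under persistent antigen, and the groups overlapped. Its blocked call was lost without transient PBS replicate 1 or 2 or persistent PBS replicate 2 or 3. It was also lost with the mean of its probe sets, with cyclic loess and with replicates 1 and 3 only. Over all alternatives the adjusted p in limma reached 0.63, and the other Fancc probe sets differed by 0.13 and 0.12. Atr was at 6.25, 6.68 and 6.68 after transient antigen, between its levels without and with persistent antigen. Its difference from persistent antigen was −0.46 (blocked interval −0.80 to −0.12, adjusted p = 0.075), with no overlap of arrays. Rad18 was higher under persistent than transient antigen with the block (1.28 ± 0.23, adjusted p = 8.8e-04). Its transient arrays were low on the probe set used. The call was kept in all 12 alternatives, which include the mean of its probe sets.

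**Figure D3:**
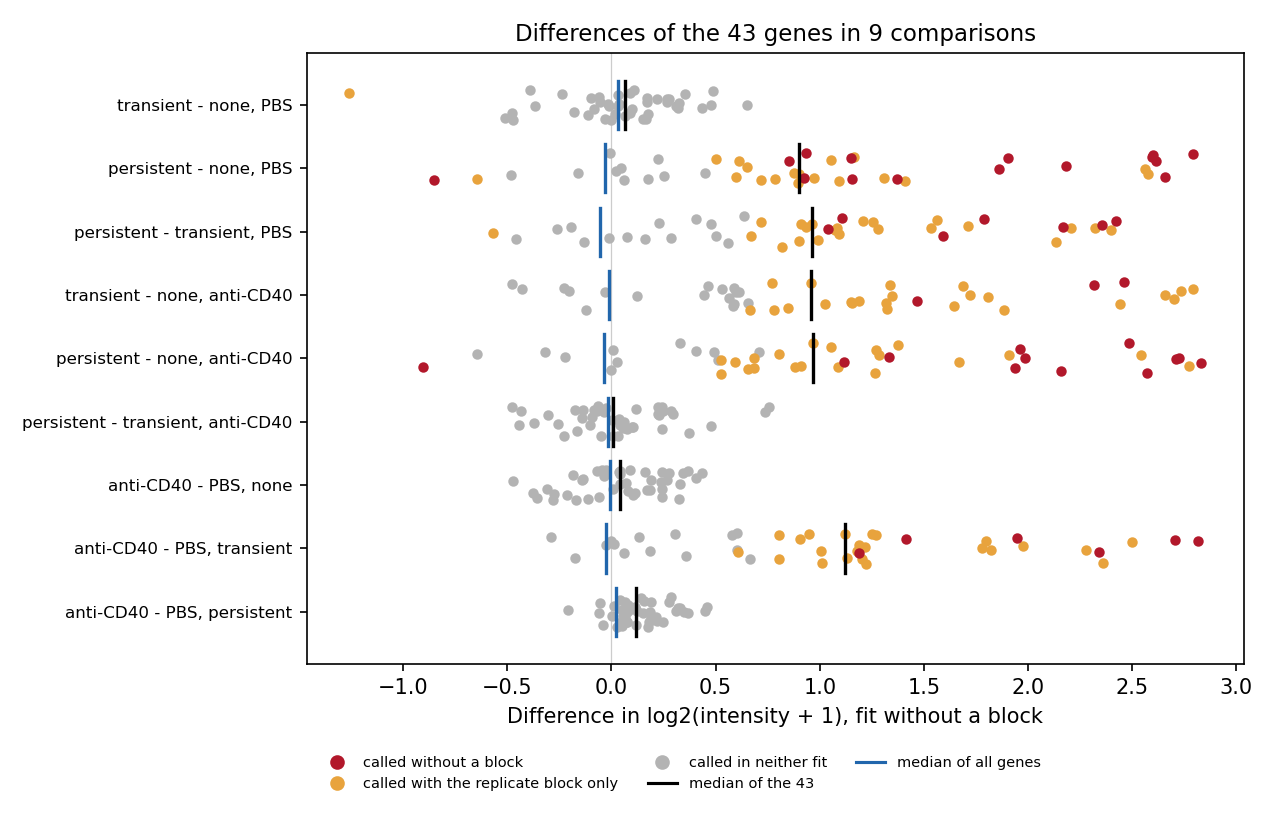
Difference in log2(intensity + 1) of each of the 43 genes (points, horizontal axis) in 9 comparisons (vertical axis, with points spread at random within each), coloured by whether limma called them; black and blue bars mark the medians of the 43 and of all genes. The medians lie near 0.90 to 1.12 in 5 comparisons and near 0 in the other 4.

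Anti-CD40 was set against PBS within each regime to ask what dendritic cell activation added. With transient antigen it went with a rise in most of the genes. The median difference was 1.12, against −0.03 for all genes, and 1.13 and 0.80 within replicates 1 and 2. In limma 6 rose and 0 fell, where 0.638% of all genes were called. With the block 29 rose and 0 fell, where 10.5% were called. The arrays did not overlap for 28 of the 43, as for 21.6% of all genes. Exo1 was at 7.11 and 6.43 with anti-CD40, both above its 3 PBS arrays, by 2.34 ± 0.36 (adjusted p = 0.017). Clspn was at 8.06 and 8.02 with anti-CD40 and at most 6.66 with PBS, a difference of 1.95 ± 0.35 (adjusted p = 0.029). Fancb, of the Fanconi core complex, was at 6.05 and 5.57 with anti-CD40 and at 4.51, 4.78 and 3.90 with PBS. It rose by 1.41 ± 0.27 (adjusted p = 0.037). The other 3 called were Dna2 (2.82), Fancm (1.19) and Trip13 (2.71). With the mean of probe sets the calls of Clspn, Fancb and Fancm were lost, and that of Fancm also with log2(intensity + 16). The other Clspn probe set, a dim one, differed by −0.05 and was not called. None of the 43 was called without transient PBS replicate 2 or 3 or transient anti-CD40 replicate 1, and 3 were without transient anti-CD40 replicate 2. The blocked count was 16 without transient anti-CD40 replicate 1, and 15 of the 29 blocked calls were kept in all 11 alternatives.

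With persistent antigen the differences of anti-CD40 from PBS were smaller. Their median was 0.12, with 39 of the 43 genes above 0, as with transient antigen, and 0 of the 43 were called in limma with or without the block, as were 0% of all genes. An unadjusted p under 0.05 was reached by 0 genes, and by 1 (Exo1) with the block. Exo1 was at 6.57, 6.82 and 6.02 with anti-CD40, within reach of its PBS arrays, a difference of 0.45 (blocked interval 0.04 to 0.86). The interval for Clspn was −0.48 to 0.53 and that for Chek1 −0.42 to 0.77. With no antigen the median difference was 0.04, and again 0 genes were called with or without the block, where 0% and 0.0055% of all genes were. There an unadjusted p under 0.05 was reached by 0 genes, and by 1 (Atm, −0.50) with the block.

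With anti-CD40 in all groups, antigen of either duration went with higher levels. Persistent antigen differed from no antigen by a median of 0.97, with 11 higher and 1 lower, where 2.37% of all genes were called (1.64% higher and 0.737% lower). With the block 31 were higher and 1 lower, where 16.4% were called (10.9% higher and 5.5% lower). Clspn was at 8.08, 8.38 and 8.42 against 6.30 and 5.15 (2.57 ± 0.35, adjusted p = 0.0029). Exo1 differed by 2.16 ± 0.36 (adjusted p = 0.0078), its no-antigen arrays being at 4.74 and 3.88. Brip1 was at 5.43, 4.53 and 4.88 against 3.84 and 3.39 (1.33 ± 0.25, adjusted p = 0.015). Atr was the lower gene, at 6.13, 6.28 and 6.16 against 7.06 and 7.13, without overlap (−0.90 ± 0.22, adjusted p = 0.050, and 0.0023 with the block). Its unblocked call was lost with the mean of its probe sets, with the compared groups alone and with replicates 1 and 3 only. It was also lost when any array of the compared groups was left out. Of these 12 calls the number was 0 without no-antigen anti-CD40 replicate 2, and 2, 3 and 3 without persistent anti-CD40 replicates 1, 2 and 3. The blocked count of 32 was 21 without no-antigen anti-CD40 replicate 2.

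Transient antigen with anti-CD40 differed from no antigen with anti-CD40 by a median of 0.96. In limma 3 genes rose, where 0.572% of all genes were called (0.423% higher and 0.148% lower), and 26 with the block, where 14% were (10.5% higher and 3.48% lower). The 3 were Exo1 (2.46 ± 0.39, adjusted p = 0.017), Clspn (2.32 ± 0.38, adjusted p = 0.017) and Brip1 (1.47 ± 0.28, adjusted p = 0.033). The count was 9 without no-antigen anti-CD40 replicate 1, 0 without replicate 2 of that group or transient anti-CD40 replicate 1, and 1 without transient anti-CD40 replicate 2. Persistent against transient antigen, both with anti-CD40, gave a median of 0.01 and 0 calls in limma with or without the block, where 0.0055% and 0.077% of all genes were called (with the block 0.055% higher and 0.022% lower). An unadjusted p under 0.05 was reached by 1 gene, Rad51c (0.75 ± 0.34), and by 3 with the block, Rad51c (0.69 ± 0.25), Rad54l (0.68 ± 0.23) and Atr (−0.45 ± 0.19), all with an adjusted p of 0.73 or more. The blocked intervals were −0.28 to 0.88 for Clspn, −0.68 to 0.69 for Chek1 and −0.18 to 1.0 for Brca1. Replicates 1 and 2 went different ways here, with medians of −0.15 and 0.22.

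Whether the gap between persistent and transient antigen differed with treatment was tested as an interaction. Its median over the 43 genes was −0.93, with 38 of them below 0, which is a smaller gap with anti-CD40 than with PBS. Without the block limma called 0 of the 43 and 0% of all genes, and 16 of the 43 had an unadjusted p under 0.05. With the block 12 were called, all negative, where 1.79% of all genes were called, and 29 had an unadjusted p under 0.05. Dna2 had the smallest p, at −2.36 ± 0.35 (adjusted p = 0.0030). Exo1 followed at −1.72 ± 0.30 (adjusted p = 0.0079) and Chek1 at −2.40 ± 0.43 (adjusted p = 0.010). Only the call of Dna2 was kept in all 17 alternatives. The count of 12 was 7 without transient PBS replicate 3 or transient anti-CD40 replicate 2. It was 3 without replicate 1 of transient or persistent anti-CD40, and 2 without persistent PBS replicate 3. The same interaction of persistent against no antigen gave 0 calls with or without the block, as for 0% of all genes, with 0 and 1 genes (Atm) at an unadjusted p under 0.05.

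Other lists were counted in the same comparison, persistent antigen against none with PBS, with the block unless stated, where 16.7% of all genes were called. Of 17 DNA replication genes, such as those of the Mcm helicase, 17 rose (10 without the block), with a median of 2.06. Cdc6, a loader of that helicase, led them at 3.40 ± 0.27. Of 12 mitosis genes 12 rose (11 without the block), with a median of 2.98, led by Birc5 (3.75 ± 0.29), which encodes survivin. Of 20 other checkpoint and translesion genes 11 rose and 1 fell (2 and 1 without the block), with a median of 0.60. The phosphatase gene Cdc25b (3.56 ± 0.23) and the fork protection gene Tipin (2.17 ± 0.25) rose most. Rev3l, the catalytic subunit of a translesion polymerase, fell (−0.95 ± 0.17, adjusted p = 5.1e-04). Of 18 other recombination and Fanconi genes 7 rose and 1 fell (2 and 0 without the block), with a median of 0.20. Hells, a chromatin remodeller, rose by 1.61 ± 0.16 and Swi5, a recombination mediator, by 1.25 ± 0.22, while Rad51d, another recombination gene, fell (−0.61 ± 0.18).

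Repair genes of further lists were called with the block in both directions. Without it 0 of the mismatch and base excision, end joining and nucleotide excision genes below were called by limma. Of 16 other mismatch and base excision genes 2 rose and 1 fell, with a median of −0.13. The risers were Mbd4 (0.84 ± 0.15), a glycosylase for mismatched thymine, and Pms1 (0.66 ± 0.15). Smug1, a uracil glycosylase, fell (−0.62 ± 0.16). Of 11 genes of non-homologous end joining 2 rose and 1 fell, with a median of 0.05. Paxip1 rose by 1.06 ± 0.18 and Xrcc6, the gene of Ku70, by 0.75 ± 0.25, while Trp53bp1 fell (−0.67 ± 0.17). Of 13 nucleotide excision genes 2 rose and 3 fell. The falls included the damage sensors Xpc (−1.11 ± 0.21) and Ddb2 (−0.75 ± 0.16), and the largest rise was that of Rad23b (0.94 ± 0.16), an Xpc partner. Of 19 target genes of p53, 3 rose and 2 fell (0 and 1 without the block), with a median of −0.02. Pmaip1 (1.65 ± 0.22) and Perp (0.91 ± 0.27) rose most, and Sesn1 (−1.54 ± 0.18) and Btg2 (−0.62 ± 0.18) fell. The p53 targets Cdkn1a, a cell cycle inhibitor, and Mdm2 were at 0.18 and −0.12, neither called.

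After transient antigen with PBS the division lists parted. Of the 12 mitosis genes 7 rose with the block and 0 without it, with a median of 1.0. In this comparison 2.89% of all genes were called with the block and 0.126% without it (2.02% and 0.0934% higher). Of the 17 replication genes 0 were called in limma either way, with a median of 0.07, the same as that of the 43 repair and checkpoint genes. Between anti-CD40 and PBS with transient antigen, 17 of the 17 replication genes rose with the block and 4 without it, with an unblocked median of 1.88. Of the 12 mitosis genes 11 rose with the block and 0 without it, with an unblocked median of 1.71. Of all genes 10.5% were called there with the block and 0.638% without it. The lists were described by these counts and no test of one list against another was made.

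**Figure D4:**
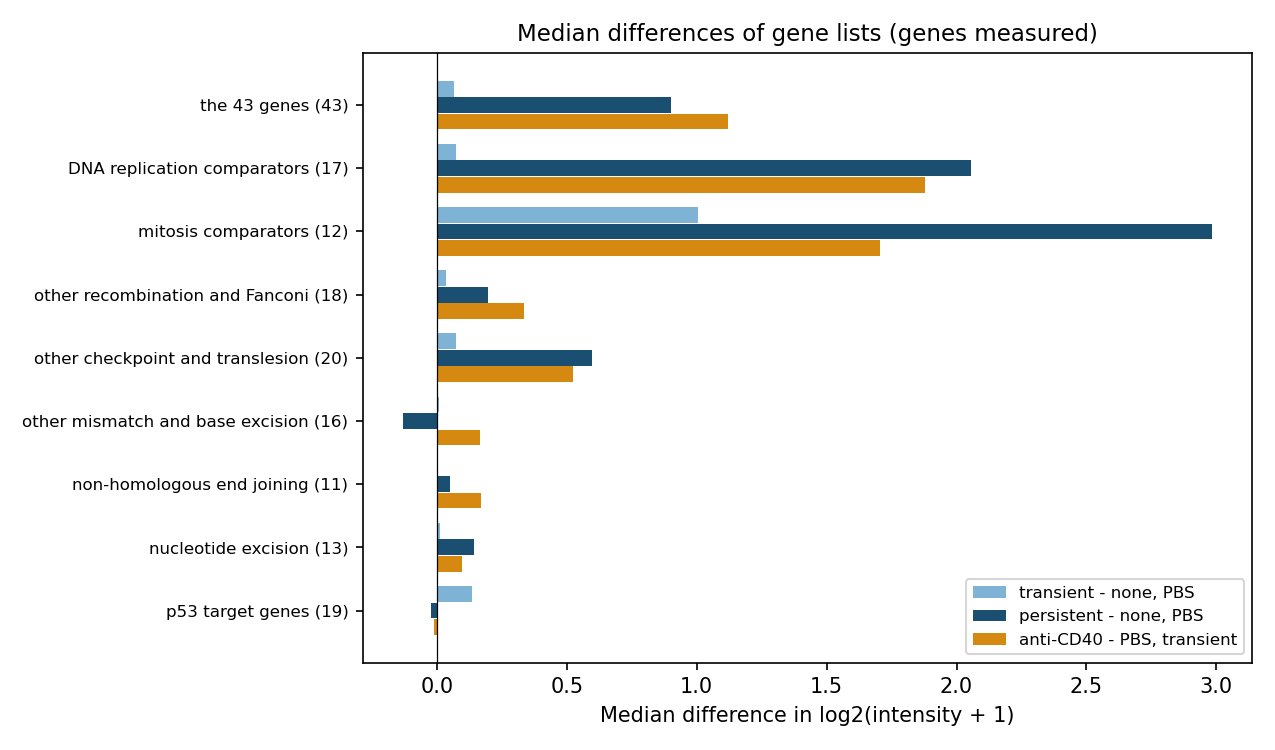
Median difference in log2(intensity + 1) (horizontal axis) of the 43 genes and 8 other gene lists (vertical axis, number of genes measured in brackets) in 3 comparisons, without a block. The replication bar is near 0 for transient antigen, at 0.07, while the mitosis bar is at 1.0, and both exceed the 43 genes' 0.90 under persistent antigen.

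Markers of other cells were checked beside these results. All 9 measured T cell markers lay above the median probe set in every group, with summed intensities of 7531.5 to 11547.8. Between persistent and no antigen with PBS, Cd5 fell (−1.54 ± 0.28, adjusted p = 0.0069), and Cd3g (−0.58) and Cd2 (−0.73) fell with the block alone. Of 7 B cell markers 1 was called between persistent and no antigen with PBS. This was Cd22, which rose by 1.44 ± 0.24 (adjusted p = 0.0040). The summed B cell markers were at 252.2 to 323 without antigen and at 340.3 to 465.4 under persistent antigen, with 3 of 7 above the median probe set in both. Of the 7 markers 4 were higher and 3 lower under persistent antigen. The lower ones were Ms4a1 (mean 6.21 to 5.91), Blk (5.71 to 5.27) and Blnk (4.18 to 3.98). Mean Cd22, which is part of the sum, went from 6.56 to 8.00. The defining gene Cd79a stayed at group means of 3.29 to 3.68, below the median probe set. The part of B cell RNA in the rises was not tested. Summed dendritic cell and macrophage markers were at 324.7 to 399.9 without antigen and at 317.3 to 434.4 under persistent antigen, with 0 of 10 called in limma with or without the block. Summed markers of CD8 T and NK cells were at 148.6 to 203.5 without antigen and at 98.9 to 117.9 under persistent antigen, with no overlap and 2 of 5 above the median probe set in both. Of these 5, Eomes fell with the block (−1.32 ± 0.27, adjusted p = 0.0017, against 0.071). Its mean went from 6.72 to 5.40, and that of Cd8a from 5.40 to 5.19. The other 3 were higher, Cd8b1 (3.31 to 3.41), Ncr1 (3.76 to 3.82) and Klra8 (3.03 to 3.26), all below the median probe set. Summed stroma markers were at 122.4 to 145.0 and 101.8 to 123.0, with Pecam1 lower with the block (−0.60 ± 0.14, adjusted p = 0.0056, against 0.11). Granulocyte markers were at 76.1 to 78.8 and 67.7 to 74.5, and erythroid markers at 61.1 to 73.0 and 54.8 to 60.7, with 0 called in either fit. With anti-CD40 and no antigen the summed B cell markers were at 288.1 to 502.5, with 5 of 7 above the median probe set. From there to transient antigen with anti-CD40, 1 B cell marker rose and 2 fell with the block. Of dendritic cell and macrophage markers 0 rose and 1 fell, where 14% of all genes were called. Mean Ms4a1 went from 7.10 to 5.45 and mean H2-Aa from 7.05 to 5.67. The part of these shifts in the results was not tested.

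Several of the genes had more than 1 probe set, 29 of the 43 in all. For the calls of either fit, their other probe sets gave 205 values over the comparisons, of which 34 had the opposite sign. They belonged to Brca1, Chek1, Clspn, Fanca, Fancb, Fancc, Fancd2, Fancl, Fancm, Rad18, Rad50, Rad54l and Trip13. For transient against no antigen with anti-CD40, the Rad18 probe set used differed by −0.20, while 2 others differed by 1.32 and 1.2, called with the block (adjusted p = 0.0023 and 0.0022 over all probe sets).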

How the data were processed

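RNA of the 16 arrays was amplified in 2 rounds, per the labels' protocols. The authors deposited intensity values made with RMA (version not given), according to the submitters' processing notes. The values were read as linear and used as log2(intensity + 1), without further scaling. Of 45101 probe sets, 34945 had 1 gene symbol, and the one with the highest mean stood for its gene. The number of arrays limits precision.

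Differences were fitted with limma 3.58.1 (R 4.3.3), tables being read with the data.table package, with 6 group means over all arrays and an intensity trend, and p-values received the Benjamini-Hochberg adjustment across the 18193 genes. Arrays with the same replicate number deviated together, with r from 0.48 to 0.81 (median 0.68) in 36 pairs. In 70 pairs with different numbers r ran from −0.81 to 0.6 (median −0.53), so the ranges overlapped. Deviations were taken from the group mean and so sum to 0 within a group, which in part sets these negative values. All 16 arrays matched best with their own number. The pairing therefore comes from the data, not the labels.

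The genes, lists, roles and tests were chosen with earlier results of these data known. In each role the 3 largest called differences (persistent minus no antigen, PBS) and the smallest are given in full. In each other comparison up to 3 called genes with the smallest p are named, with every fall. Genes with an unadjusted p under 0.05 in comparisons with few calls, and those given with intervals, were named after their values were seen. Genes outside the 43 are the 2 largest called differences each way per list. Alternatives were a replicate block, a block for runs of array numbers, the compared groups alone, no trend and no dim genes. Others were mean probe sets, cyclic loess, log2(intensity + 16) and leaving out each array of the groups compared. A fit of replicates 1 and 3 alone and alternatives to the blocked fit were added after seeing the data.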

Additional observations from a re-analysis of the deposited data

Results flagged for a closer look

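The gap between persistent and transient antigen was smaller with anti-CD40 than with PBS for 12 genes, by a test of the interaction in limma with the replicate block (adjusted p of 0.033 or less). The interactions were −2.40 for Chek1, −2.36 for Dna2, −2.28 for Trip13, −2.01 for Brca1 and −1.87 for Clspn. They were −1.72 for Exo1, −1.57 for Blm, −1.53 for Rad54l, −1.46 for Rad54b, −1.23 for Brca2, −1.15 for Brip1 and −1.12 for Fancm. Without the block 0 of 18193 genes were called. All 12 were among the 38 of 43 genes below 0 in the fit without the block.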

How the results depend on the processing

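The counts of the 43 genes called were recomputed under each alternative, and no direction reversed. In the order persistent against no antigen (PBS), persistent against transient (PBS), transient against none (PBS), persistent against none (anti-CD40), transient against none (anti-CD40), anti-CD40 against PBS (transient) and the interaction of persistent against transient, the replicate block gave 33, 29, 1, 32, 26, 29 and 12. A block for runs of array numbers gave 33, 29, 2, 29, 27, 29 and 17. With the compared groups alone the first count was 8, and it was 0 for persistent against transient (PBS), both anti-CD40 comparisons with no antigen, and anti-CD40 against PBS (transient). The mean of probe sets gave 11 for persistent against transient (PBS) and 6 for transient against none (anti-CD40). Cyclic loess gave 15 and 7 for these, and 12 for anti-CD40 against PBS (transient). Replicates 1 and 3 only, chosen after seeing the data, gave 25, 18, 3, 1 and 19 in that order, leaving out transient against none (PBS) and the interaction. That setting leaves 1 array each of no and transient antigen with anti-CD40, as does leaving out an array of these groups, and the spread of such a lone array is taken from the remaining groups. Leaving out each array gave 4 to 13, 1 to 7, 0 to 0, 0 to 13, 0 to 9, 0 to 4 and 0 to 0. With the block, also added later, it gave 27 to 31, 25 to 29, 0 to 2, 21 to 29, 18 to 27, 16 to 30 and 2 to 15. For transient against none (PBS) the blocked fit gave 2 with cyclic loess, 2 with replicates 1 and 3 only, 2 without no-antigen replicate 2 and 0 without transient replicate 2. The blocked persistent against none count (anti-CD40) was 21 without no-antigen replicate 2, and the blocked anti-CD40 against PBS count (transient) was 16 without transient anti-CD40 replicate 1. The blocked interaction gave 21 with replicates 1 and 3 only, 7 without transient PBS replicate 3 or transient anti-CD40 replicate 2, 3 without replicate 1 of transient or persistent anti-CD40, and 2 without persistent PBS replicate 3. The cause of these moves was not tested, beyond the fewer arrays that some settings hold.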
